A study of Mus musculus with 6 samples.

Results

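Genes of red blood cells were followed in sorted hindbrain cells of mouse embryos: the globins Hbb-y, Hbb-bh1, Hba-x and Hba-a1, the haem enzyme gene Alas2, the transcription factors Klf1 and Gata1, the erythropoietin receptor Epor and the anion exchanger Slc4a1. They were chosen by name, as the 9 of 18193 measured genes that a list of embryonic globins and erythroid genes holds, and they are covered by 15 of 45037 probe sets, which each carry 1 gene symbol. Per RefSeq, Alas2 and Gata1 lie on chromosome X, Klf1 on chromosome 8, Epor on chromosome 9 and Slc4a1 on chromosome 11. Cells positive for the reporter tauGFP, which couples green fluorescent protein to the microtubule protein tau, had been sorted by flow cytometry from hindbrains of whole litters at E10.5, and their amplified RNA was hybridized to Affymetrix Mouse Genome arrays. In both genotypes an IRES-tauGFP reporter sits in the Hoxb1 locus. In the control group (Hoxb1-IRES-tauGFP, n = 3 arrays) that locus makes Hox-B1 itself, and among the swap embryos (n = 3 arrays) it makes another Hox protein instead. The reporter follows the Hoxb1 locus and is no marker of blood, and each array holds pooled embryos. The dissected tissue is labelled rhombomere 4, a hindbrain segment and the source of facial motor neurons. The motor neuron marker Isl1 stood between 13.63 and 14.03 in log2 intensity over the 6 arrays and Ebf1 between 13.52 and 14.04, against a median of 6.83 over all probe sets. Values of an array group are given below as log2 intensity in the order of replicates 1, 2 and 3, and arrays are called by genotype and replicate number (control array 1).

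Haemoglobin is a tetramer of alpha-like and beta-like globin chains that each hold a haem group. In the mouse, primitive red cells leave the yolk sac and circulate at this stage, and they carry the embryonic beta-like chains of Hbb-y and Hbb-bh1 and the embryonic alpha-like zeta chain of Hba-x along with the alpha chain of Hba-a1 and Hba-a2, which is kept in the adult. Gata1 and Klf1 are DNA-binding factors that switch on globin and haem genes, Epor passes the survival signal of erythropoietin, Alas2 makes the first step of haem synthesis in red cells, and Slc4a1 (band 3) exchanges chloride and bicarbonate across the red cell membrane.

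The 3 embryonic globins were abundant in every array of both genotypes, and 0 of the 9 genes passed limma's test between the genotypes, where 0% of the 45037 probe sets passed (smallest adjusted p 0.26; 2060, or 4.57%, had an unadjusted p under 0.05). All 3 embryonic globins were lowest in replicate 1 of each genotype, as were 7 of the 9 genes, against 17.4% of all 18193 genes. The range over the arrays of a genotype was larger than the difference between the genotype means for each of these globins. A range of single arrays tends to be wider than a difference of means, so this is a description only. Alas2, Klf1, Gata1, Epor and the probe set for Hba-a1 alone had means below the median of all probe sets, and Slc4a1 lay above it. The deposited values carry no detection call, so none of these could be called absent. In RNA from a mixed sort, fewer red cells and less RNA per cell cannot be told apart.

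The median intensity per array was 118, 130 and 139 in the control replicates and 118, 122 and 139 in the swap replicates. It was thus also lowest in replicate 1 of both genotypes, while the trimmed mean was the same in all arrays. Any pair of the 6 arrays correlated across probe sets at r between 0.885 and 0.907. Swap array 1 stood apart in the spacing of the control probe sets for the ends of a transcript, with a 3′ minus 5′ log2 signal of 2.92 for Actb and 1.93 for Gapdh, against 2.41 to 2.67 and 1.23 to 1.41 in the other 5 arrays.

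Promoter sequences of 3 globins are shown, those of Hbb-y and Hba-x because both varied alike over the arrays and that of Hba-a1 because the probe set listed for it alone followed them less closely. Probe sets shared by Hba-a1 and Hba-a2 followed Hba-x more closely, so Hba-a1 itself is not shown to vary otherwise. RefSeq (assembly GRCm38.p6) gave a promoter for 7 of the 9 genes. The 250 bases before the start of Hbb-y, Hba-x and Hba-a1 are printed 5′ to 3′. Capitals mark every match, on either strand, to the letters GATAA (the core that GATA factors bind), CACCC (the box bound by Klf1), CCAAT and ATAAA (found in many TATA boxes).
Hbb-y (chr7:103853208-103853457, minus strand): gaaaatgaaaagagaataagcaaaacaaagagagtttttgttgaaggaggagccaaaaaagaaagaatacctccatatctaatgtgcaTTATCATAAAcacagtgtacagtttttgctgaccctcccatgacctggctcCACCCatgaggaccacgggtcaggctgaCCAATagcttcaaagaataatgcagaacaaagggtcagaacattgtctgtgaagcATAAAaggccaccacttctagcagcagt
Hba-x (chr11:32276350-32276599, plus strand): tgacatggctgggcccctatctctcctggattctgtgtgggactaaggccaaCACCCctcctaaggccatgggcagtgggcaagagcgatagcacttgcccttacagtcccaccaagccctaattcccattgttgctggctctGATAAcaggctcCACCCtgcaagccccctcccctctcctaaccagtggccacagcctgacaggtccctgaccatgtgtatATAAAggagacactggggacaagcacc
Hba-a1 (chr11:32283422-32283671, plus strand): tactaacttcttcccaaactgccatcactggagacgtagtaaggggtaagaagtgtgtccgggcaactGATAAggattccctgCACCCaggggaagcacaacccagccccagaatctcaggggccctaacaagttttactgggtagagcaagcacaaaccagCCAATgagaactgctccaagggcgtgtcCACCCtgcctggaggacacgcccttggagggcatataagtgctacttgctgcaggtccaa

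GATAA or its complement TTATC was found in 6 of the 7 promoters, all but that of Gata1, and in 22.6% of the 32851 windows of 250 bases in the RefSeq table. CACCC or GGGTG was found in 7 of the 7, against 52.0% of all windows. CCAAT or ATTGG was in 3 of 7 (33.8% of all windows) and ATAAA or TTTAT in 3 of 7 (37.3%). In Hbb-y the CACCC match began 111 bases before the start and the CCAAT match 83 bases before it, with ATAAA beginning at 157 and again at 28 bases before it. In Hba-x the GATAA match began at 107 bases, the nearer CACCC match at 95 and ATAAA at 27 bases before the start. In Alas2 the GATAA and ATAAA matches overlap. A match is a description of the letters and no evidence of binding.

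Hbb-y, the embryonic beta-like epsilon-y chain, lies next to Hbb-bh1 on chromosome 7. It read 13.92, 14.32 and 14.30 in the control replicates against 13.56, 14.22 and 14.32 in the swap replicates. Replicate 1 was lowest in both genotypes, and the genotypes overlapped. The control mean was 14.18 ± 0.22 and the swap mean 14.03 ± 0.41 (SD, n = 3 each). Differences are given as swap minus control, which for Hbb-y came to -0.15 (SE 0.30, 95% interval -0.88 to 0.59, limma's adjusted p = 1.0). A further probe set behaved alike, from 13.86 to 14.32 in the control and 13.65 to 14.22 in the swap arrays. The other further probe set had wider gaps and read 12.04, 13.22 and 13.23 in the control replicates against 11.33, 12.77 and 13.10 in the swap replicates. Control array 1 lay at -1.18 from the mean of the other controls on that probe set, and at -0.39 on the probe set that stands for the gene.

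Hbb-bh1, the other embryonic beta-like chain, read 11.73, 12.90 and 12.64 in the control replicates against 11.25, 12.48 and 12.73 in the swap replicates. Swap array 1 was the lowest of all and control array 1 the next, and the other 4 arrays lay within 12.48 to 12.90. The means were 12.43 ± 0.61 and 12.16 ± 0.79 (SD, n = 3 each), a difference of -0.27 (SE 0.52, 95% interval -1.55 to 1.01). The further probe sets gave -0.36 and -0.12. On all 3 probe sets both replicate 1 arrays were lowest in their genotype.

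Hba-x, the embryonic zeta chain and neighbour of Hba-a1 on chromosome 11, had the widest range of the embryonic globins. It read 10.54, 12.24 and 11.96 in the control replicates against 9.64, 11.39 and 11.83 in the swap replicates, a 6.04-fold distance between swap array 1 and control array 2. The means were 11.58 ± 0.91 and 10.95 ± 1.16 (SD, n = 3 each). The difference came to -0.62 (SE 0.74, 95% interval -2.44 to 1.19), and the genotypes overlapped. Among 1290 genes within 0.5 log2 units of its mean level, the median range over 3 arrays was 0.34 among controls and 0.35 among swap arrays, against 1.7 and 2.19 for Hba-x. Hbb-bh1 likewise ranged over 1.17 and 1.48, where 825 genes of like level had a median range of 0.29 and 0.30. Hbb-y was less wide among controls, at 0.39 against 0.29, and ranged over 0.76 against 0.22 among swap arrays. Klf1 and Slc4a1 were also wider than genes of like level in both genotypes, and Alas2 and Epor only among swap arrays. Hba-a1 (0.83 against 2.25 in both genotypes) and Gata1 were narrower in both.

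Hba-a1, the alpha chain, was represented by 1 probe set at a low level. It read 5.41, 5.52 and 6.24 in the control replicates against 3.71, 4.54 and 4.19 in the swap replicates. The highest swap array was still under the lowest control array. The control mean was 5.72 ± 0.45 and the swap mean 4.14 ± 0.42 (SD, n = 3 each), which differ by -1.58 (SE 0.35, 95% interval -2.45 to -0.71). It did not pass limma's test over all probe sets (adjusted p = 0.771, unadjusted p = 0.00466). With 64 added to each intensity before log2 the difference was -0.52, and leaving out any 1 array gave -1.78 to -1.32. Groups that do not overlap were found in 1 of the 9 genes and in 8.85% of all genes, and all swap arrays below all control arrays in 4.55%.

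A further 3 probe sets are listed under both Hba-a1 and Hba-a2, near-identical copies, so neither gene can be named from them. The first read 9.27, 11.39 and 10.87 in the control replicates against 9.41, 10.09 and 10.85 in the swap replicates. The second read 9.23, 11.16 and 10.67 against 8.95, 10.26 and 10.71 in the same order. The third read 5.55, 8.01 and 7.56 against 6.03, 6.48 and 7.58. Their differences were -0.39, -0.38 and -0.34, with the genotypes overlapping on each. As a description, they followed Hba-x over the 6 arrays at r of 0.92, 0.98 and 0.87 (0.99, 0.97 and 0.97 without the replicate 1 arrays), and the probe set listed for Hba-a1 alone did so at 0.56. The 3 shared probe sets thus did not show the separation seen on the single Hba-a1 probe set. A probe set listed for Hba-a2 alone stood between 10.26 and 10.83 in all 6 arrays, with a difference of -0.02 (SE 0.26). RNA of near-identical globin copies can bind to the same probes, and which copy each probe set detects is uncertain.

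**Figure D1:**
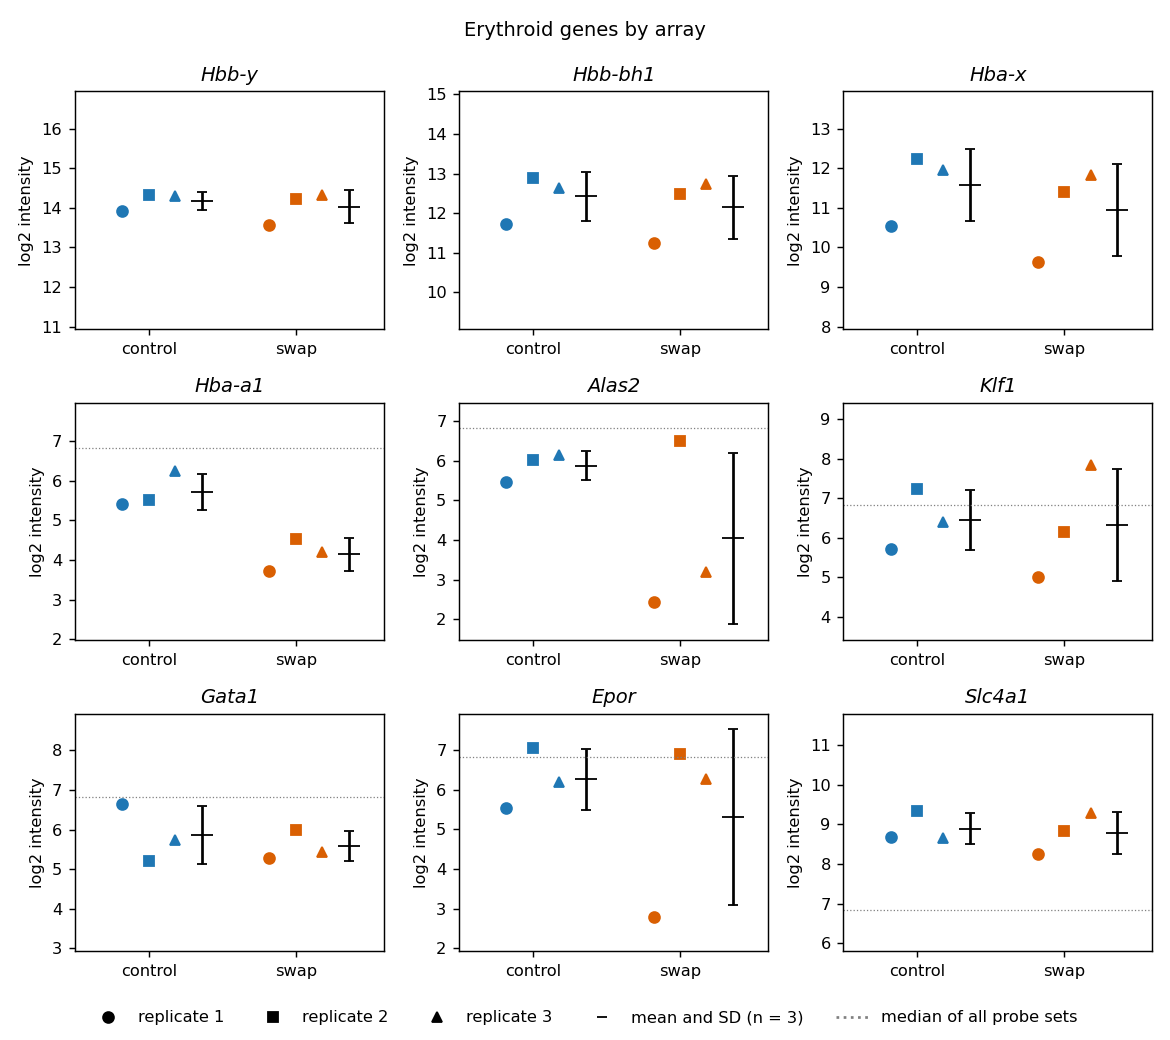
Log2 intensity of the 9 genes in each array (vertical axes, each spanning 6 log2 units), with circles, squares and triangles for replicates 1, 2 and 3, bars for the mean and SD of 3 arrays and a dotted line at the median of all probe sets, 6.83. That line lies below the panels of Hbb-y, Hbb-bh1 and Hba-x and is not seen in them. Replicate 1 is lowest in both genotypes for Hbb-y, Hbb-bh1 and Hba-x, and Hba-a1 alone has groups that do not overlap.

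Alas2 had 1 probe set, which read 5.46, 6.02 and 6.15 in the control replicates against 2.44, 6.50 and 3.19 in the swap replicates. The highest and the lowest of the 6 values were both swap arrays. The difference was -1.84 with a wide error (95% interval -4.49 to 0.82, SE 1.07, adjusted p = 1.0 in limma). With 64 added before log2 the difference was -0.42, and leaving out any 1 array gave -3.07 to -1.03. Of the other measured haem synthesis genes, a list with 8 of 9 members measured, the ferrochelatase gene Fech had a difference of -0.40 (SE 0.26) and Alad, of the step after Alas2, one of -0.42 (SE 0.36). The list, Alas2 included, had 5 members lower and 3 higher in the swap mean, 0 past the test and a median of -0.15, against 0.01 over all genes.

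Klf1 read 5.72, 7.22 and 6.39 in the control replicates against 5.0, 6.14 and 7.83 in the swap replicates, with both the lowest and the highest value in the swap group. Its difference was -0.12 (SE 0.80, 95% interval -2.09 to 1.86). Gata1 read 6.65, 5.20 and 5.73 in the control replicates against 5.28, 6.0 and 5.44 in the swap replicates. Control array 1, where the embryonic globins were low, was the highest array for Gata1. Its difference was -0.28 (SE 0.44, 95% interval -1.37 to 0.81). The list of 14 erythroid transcription factors, these included, was measured in full, with 8 lower and 6 higher in the swap mean, 0 past the test and a median of -0.12. Myb, a factor of blood progenitors, had the smallest p of the list. It read 10.32, 10.40 and 10.74 in the control replicates against 11.28, 11.62 and 11.11 in the swap replicates, or 0.85 higher in swap (SE 0.26, limma's adjusted p = 1.0 and unadjusted p = 0.0171), and its groups did not overlap. Gata2, which also acts in hindbrain neurons, had a difference of -0.79 (SE 0.46), with control array 1 at 12.70 and the other 5 arrays between 10.83 and 11.26.

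Epor read 5.53, 7.06 and 6.19 in the control replicates against 2.78, 6.91 and 6.27 in the swap replicates. Swap array 1 lay far below the other 5 arrays, at -3.81 from the mean of the other swap arrays. The difference came to -0.94 (SE 1.15, 95% interval -3.77 to 1.90), and it was 0.33 without swap array 1. The erythropoietin signalling list had 10 of 11 members measured, 5 lower and 5 higher, 0 past the test and a median of 0.03. Its smallest p belonged to the stem cell factor receptor gene Kit (-0.28, SE 0.24) and the kinase gene Jak2 (0.20, SE 0.21).

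Slc4a1 was measured by 3 probe sets that differed in sign. The probe set with the highest mean read 8.68, 9.35 and 8.65 in the control replicates against 8.24, 8.84 and 9.30 in the swap replicates, with a difference of -0.10 (SE 0.37, 95% interval -1.02 to 0.82). The further probe sets gave -0.27 (SE 0.43) and, at a level below the median, 0.63 (SE 0.64). The red cell membrane and skeleton list had 17 of 20 members measured, 12 lower and 5 higher, 0 past the test and a median of -0.10. Rhd and Rhag, of the Rh complex of the red cell membrane, had its smallest p, at differences of -1.06 (SE 0.49) and -0.78 (SE 0.39).

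Read as a group, 9 of the 9 genes had a lower mean in the swap arrays, where 49.1% of all genes did. limma called 0 of them, and 1 of the 9, Hba-a1, had an unadjusted p under 0.05, against 3.63% of all genes (1.94% lower in swap). Their median difference was -0.28 and that of all genes 0.01. The direction of 6 of the 9 depended on swap array 1. That array was the lowest of all for 8 of the 9 genes, so leaving it out alone raises their swap mean while control array 1 stays in. Without that array 3 of the 9 were lower and the median was 0.09, with Hbb-y at 0.09, Hbb-bh1 at 0.18, Hba-x at 0.03, Klf1 at 0.54 and Slc4a1 at 0.17. Without both replicate 1 arrays 6 of the 9 were lower and the median was -0.04. The embryonic globins were among those lower, with Hbb-y at -0.04, Hbb-bh1 at -0.16 and Hba-x at -0.49. Without control array 2, 7 of 9 were lower, and without control array 1, 8 of 9. Median centring and quantile normalization left 9 of 9 lower, and an offset of 64 left 8 of 9. The 95% interval lay within 2-fold for 1 of the 9 genes, Hbb-y, so changes of that size could not be resolved for the other 8. For Hbb-y this depended on the probe set, since the one with the wider gaps had a difference of -0.43 and an interval of -1.89 to 1.03.

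**Figure D2:**
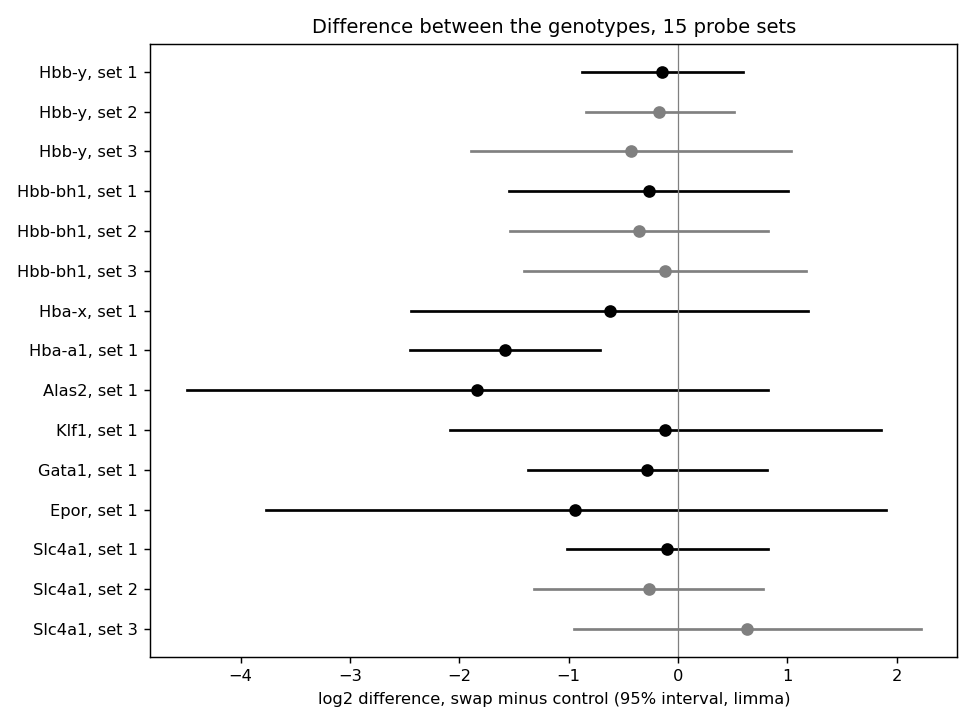
Log2 difference, swap minus control, for all 15 probe sets of the 9 genes (points, with black for the probe set that stands for the gene and grey for the further ones) and its 95% interval from limma (lines). The interval of Hba-a1 runs from -2.45 to -0.71, and each of the other 14 crosses 0.

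Between arrays the embryonic globins varied alike, although 0 of the 36 pairs of genes had an adjusted p under 0.05 and 13 had an unadjusted p under 0.05 for r. Hbb-bh1 and Hba-x had r = 0.99 over the 6 arrays (exact permutation p = 0.00278, adjusted p = 0.050 over the 36 pairs) and a Spearman rho of 0.94 (exact permutation p = 0.0167, adjusted p = 0.15). Hbb-y and Hbb-bh1 had r = 0.98 (exact permutation p = 0.00278, adjusted p = 0.050) and rho = 0.94 (exact permutation p = 0.0167, adjusted p = 0.15). Hbb-y and Hba-x had r = 0.98 (exact permutation p = 0.00556, adjusted p = 0.0667) and rho = 0.83 (exact permutation p = 0.0583, adjusted p = 0.233). The smallest p that 6 arrays allow is 0.0014 for r. The 2 arrays farthest from the median of each of these globins were the replicate 1 arrays. Without them r was 0.93, 0.85 and 0.87 over 4 arrays, in the same order. After genotype means were removed r was 1.00, 0.98 and 0.98. The 7 probe sets of the embryonic globins all had replicate 1 lowest in both genotypes, and their 21 pairs had r between 0.90 and 1.00, of which those within a gene share a transcript. Without the replicate 1 arrays these 21 pairs had r between 0.57 and 0.99. Whether RNA of Hbb-y also binds the probes for Hbb-bh1, or the reverse, was not tested.

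**Figure D3:**
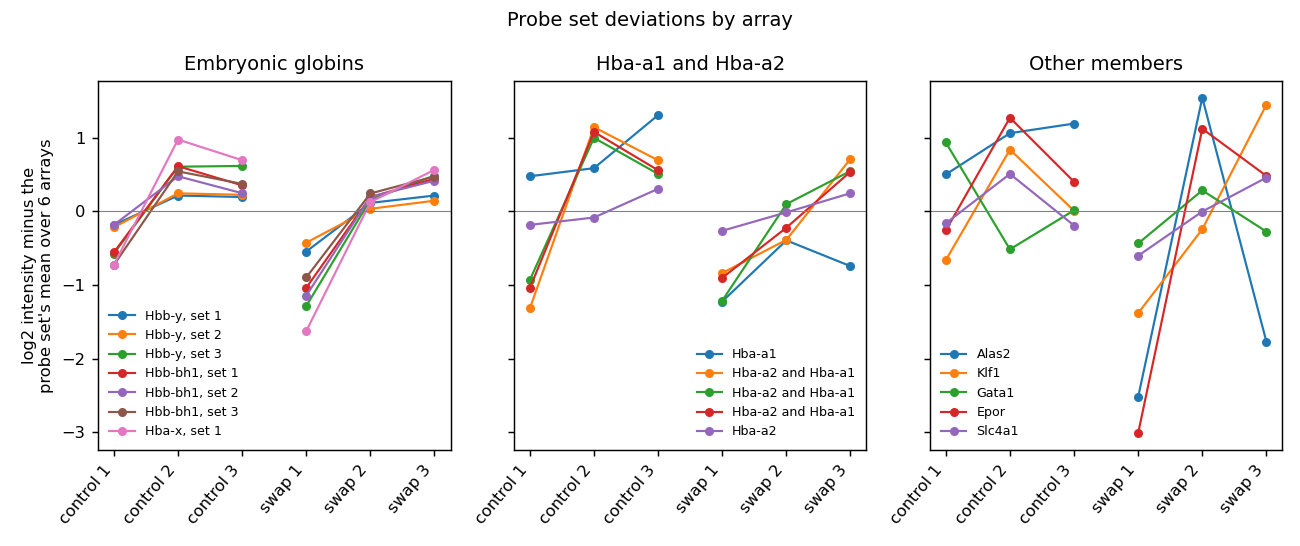
Log2 intensity minus the probe set's own mean over 6 arrays (vertical axis) in each array (horizontal axis), for the 7 probe sets of the embryonic globins, 5 probe sets of Hba-a1 and Hba-a2, and the other 5 genes; lines join arrays of a genotype only to guide the eye. The 7 embryonic globin probe sets share 1 pattern with both replicate 1 arrays lowest, and Alas2, Klf1, Gata1, Epor and Slc4a1 scatter more.

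The remaining genes followed the embryonic globins to unequal degrees. Klf1 correlated with Hbb-y at r = 0.85 (exact permutation p = 0.0264, adjusted p = 0.0955) and rho = 1.00 (exact permutation p = 0.00278, adjusted p = 0.10), and at r = 0.76 without the replicate 1 arrays. Epor correlated with Hbb-y at r = 0.94 (exact permutation p = 0.0208, adjusted p = 0.0938) and rho = 0.71 (exact permutation p = 0.136, adjusted p = 0.327), but at -0.39 without the replicate 1 arrays, so that relation rests on them. Slc4a1 correlated with Hbb-y at r = 0.81 (exact permutation p = 0.0681, adjusted p = 0.163) and rho = 0.77 (exact permutation p = 0.103, adjusted p = 0.308), and at 0.53 without them. Alas2 gave r = 0.58 (exact permutation p = 0.165, adjusted p = 0.331) and rho = 0.20 (exact permutation p = 0.714, adjusted p = 0.734), and -0.55 without them, so that it too rests on those arrays. Gata1 gave r = -0.08 with Hbb-y (exact permutation p = 0.853, adjusted p = 0.853) and rho = -0.31 (exact permutation p = 0.564, adjusted p = 0.70), and -0.86 without the replicate 1 arrays. Klf1 and Slc4a1 had r = 0.94 (exact permutation p = 0.0125, adjusted p = 0.09) and rho = 0.77 (exact permutation p = 0.103, adjusted p = 0.308), and r = 0.87 without swap arrays 1 and 3. Of the 36 pairs 31 had r above 0, and 18 did so without the replicate 1 arrays. The 5 pairs below 0 all held Gata1.

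**Figure D4:**
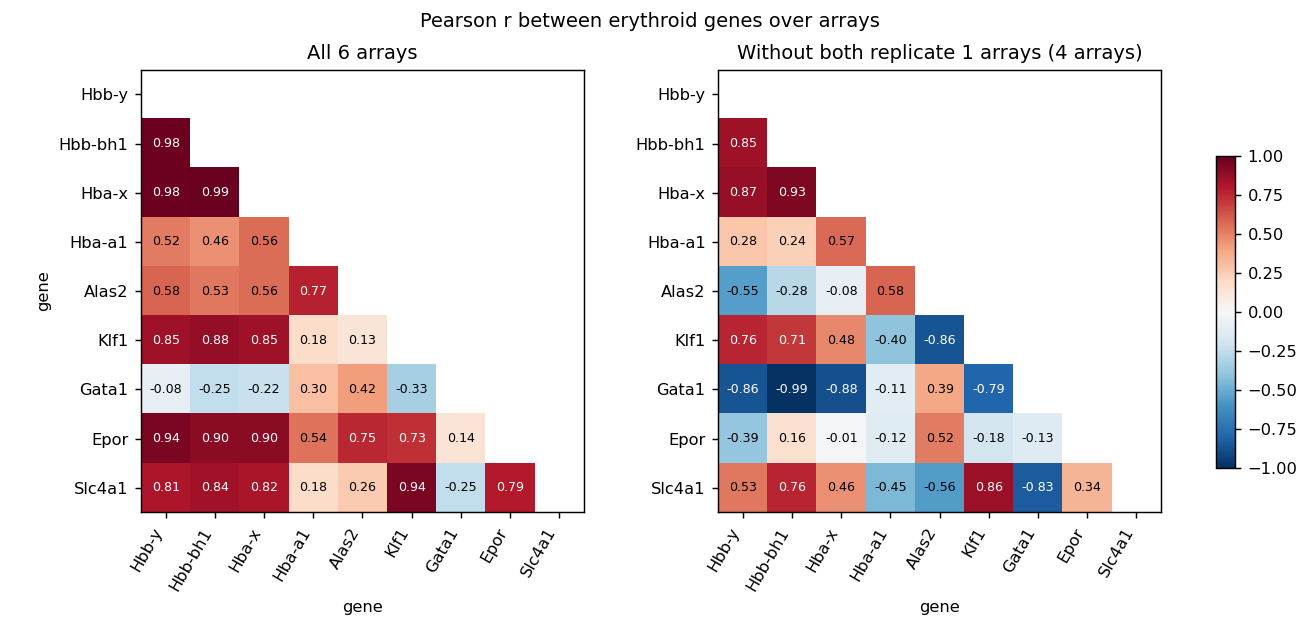
Pearson r between each pair of the 9 genes over all 6 arrays (left) and over the 4 arrays left without replicate 1 (right), with red above 0 and blue below. The embryonic globin pairs keep r of 0.85 or more in both panels, and pairs of Gata1 lie between -0.33 and 0.42 on the left.

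The pattern of Hbb-y over the arrays was shared by many genes outside the red cell lists. Among 5128 genes at or above the median level with a range over the arrays at least that of Hbb-y, 170 (3.32%) had r of 0.9 or more with it, Hbb-bh1 ranked 10 and Hba-x ranked 13. The 5 named genes with the highest r were the lysophosphatidic acid receptor gene Lpar1, the calcium pump gene Atp2b1, the nuclear RNA Malat1, the zinc-finger factor gene Tshz2 and the chromatin factor gene Jarid2, with r of 0.985 to 0.991 over 6 arrays. Atp2b1 read 10.67, 11.80 and 11.71 in the control replicates against 9.78, 11.47 and 11.50 in the swap replicates, and was thus also lowest in both replicate 1 arrays. These r share the 6 arrays and carry no p.

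Other genes of the red cell programme did not pass the test either. In the 7 lists of globins, haem, iron, transcription factors, erythropoietin signalling, membrane and red cell enzymes, 65 of 80 genes other than the 9 were measured. Of these 42 were lower and 23 higher in the swap mean, 0 passed limma's test, 1 had an unadjusted p under 0.05, and the median difference was -0.11. The globin list had 6 of 13 members measured, the 4 above included, and 6 were lower, with a median of -0.45. Hbb-b2, an adult beta chain, read 7.06, 7.72 and 8.45 in the control replicates against 3.95, 5.52 and 7.68 in the swap replicates (difference -2.03, SE 0.98, limma's adjusted p = 1.0). The iron list had 9 of 10 members measured, 7 lower and 2 higher, with a median of -0.17. Its smallest p belonged to the iron exporter gene Slc40a1 (-1.23, SE 1.01) and the mitochondrial iron importer gene Slc25a37 (-0.34, SE 0.35). The red cell enzyme list had 10 of 12 measured, 8 lower and 2 higher, with a median of -0.14, Pklr (-0.34, SE 0.25) and Cat (0.26, SE 0.25) having its smallest p.

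Summed markers of macrophages, megakaryocytes and platelets, endothelium and mesenchyme were, like the globins, lowest in replicate 1 of both genotypes, and those of motor neurons were so only among controls. A linear sum follows its brightest genes, and not all markers of these lists were singly lowest in replicate 1. The summed intensity of the 6 measured globin genes read 21900, 34535 and 32812 in the control replicates against 16581, 28992 and 32860 in the swap replicates, so that replicate 1 lay at -0.62 and -0.90 in log2 from the mean of the others of its genotype. The sums of the other red cell lists did not all follow. For transcription factors replicate 1 lay at 0.31 (control) and -0.13 (swap) from the others. It lay at 0.26 and 0.05 for membrane and skeleton and at -0.14 and 0.18 for red cell enzymes. The gaps were -0.24 and 0.12 for erythropoietin signalling, -0.16 and -0.23 for haem, and -0.18 and -0.19 for iron. Single bright genes weigh heavily in these sums. Gata2 stood at 12.70 and Slc2a1, of the membrane list, at 13.88 in control array 1, and the enzyme gene Cat at 14.06 in swap array 1. The sums therefore do not show whether the fainter members followed the globins. The summed intensity of 14 macrophage markers was 1088, 19791 and 2315 among controls and 3369, 5896 and 5642 among swap arrays, with replicate 1 at -2.64 and -0.78 from the others and the peak in control array 2. Of the 14 markers 7 lay below the median level. The highest macrophage genes were C1qb and the mannose receptor gene Mrc1. C1qb read 8.08, 13.41 and 9.79 in the control replicates against 10.26, 11.55 and 11.28 in the swap replicates. Mrc1 read 7.80, 10.68 and 7.54 against 8.78, 9.52 and 9.18, so control array 3 was its lowest. The 10 measured of 12 megakaryocyte and platelet markers summed to 1199, 5817 and 1394 among controls and to 1108, 2622 and 2648 among swap arrays. Replicate 1 lay at -1.25 from the others in both genotypes. Among controls that gap came from the peak in control array 2. Control array 3 was nearly as low as control array 1, unlike for the globins. Pf4, a platelet chemokine, read 7.67, 11.14 and 8.18 in the control against 8.10, 10.17 and 10.16 in the swap group. Gp1bb, of the platelet von Willebrand receptor, read 7.94, 9.97 and 8.96 against 7.79, 8.60 and 9.09. The smallest p of these lists and of the endothelial and mesenchyme lists belonged to Aif1 (-2.50, SE 1.17) and Spi1 (0.54, SE 0.26) for macrophages, Gp6 (1.04, SE 0.36) and Gp5 (-0.83, SE 0.31) for platelets, Cldn5 (0.91, SE 0.44) and Tek (0.59, SE 0.30) for endothelium, and Hand2 (-1.30, SE 0.31) and Dlx1 (-0.56, SE 0.30) for mesenchyme.

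The 15 branchial mesenchyme markers summed to 6306, 11924 and 8811 in the control arrays and to 6751, 9910 and 7019 in the swap arrays, again lowest in both replicate 1 arrays. The 15 endothelial markers, of which 12 lay below the median level, summed to 1318 to 1799 in the control and 1483 to 1826 in the swap arrays, with replicate 1 lowest in both. Singly, only Tie1, Egfl7 and Sox7 of them were lowest in replicate 1 of both genotypes, as were 17.4% of all genes. Esam was highest in both replicate 1 arrays, so the sum does not speak for the markers one by one. The 14 measured of 15 hindbrain and facial motor neuron markers, all above the median level, summed to 72868 to 77083 in the control and 72658 to 90733 in the swap arrays, with swap array 1 the highest. Its smallest p belonged to Hoxb1 (-0.51, SE 0.27), whose probe set has an unknown place in the transcript and does not check the labels, and to Gata3 (-0.42, SE 0.25). The highest mesenchyme genes were Dlx2, from 10.20 to 11.30 over the 6 arrays, and the collagen gene Col1a1, from 9.06 to 11.47. Dlx2 was highest in control array 1, while Col1a1 was lowest in replicate 1 of both genotypes. The highest endothelial genes were Egfl7, from 8.46 to 8.99, and the VEGF receptor gene Flt1, from 7.45 to 8.05. Of these 5 lists, 0 members passed limma's test, and the medians were 0.41 for macrophages, 0.13 for endothelium, -0.03 for megakaryocytes and platelets, -0.10 for mesenchyme and 0.09 for motor neurons. In log2, replicate 1 lay at -0.70 and -0.31 from the others for mesenchyme, at -0.32 and -0.25 for endothelium and at -0.08 and 0.28 for motor neurons. The macrophage, platelet, mesenchyme and endothelial sums were thus lowest in the same replicate 1 arrays as the embryonic globins. Control array 3 was nearly as low for platelets, and swap array 3 for mesenchyme. Swap array 1 also had the highest neuron sum and 3′ minus 5′ signal. The part of these sums and this signal in the low globins was not tested.

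**Figure D5:**
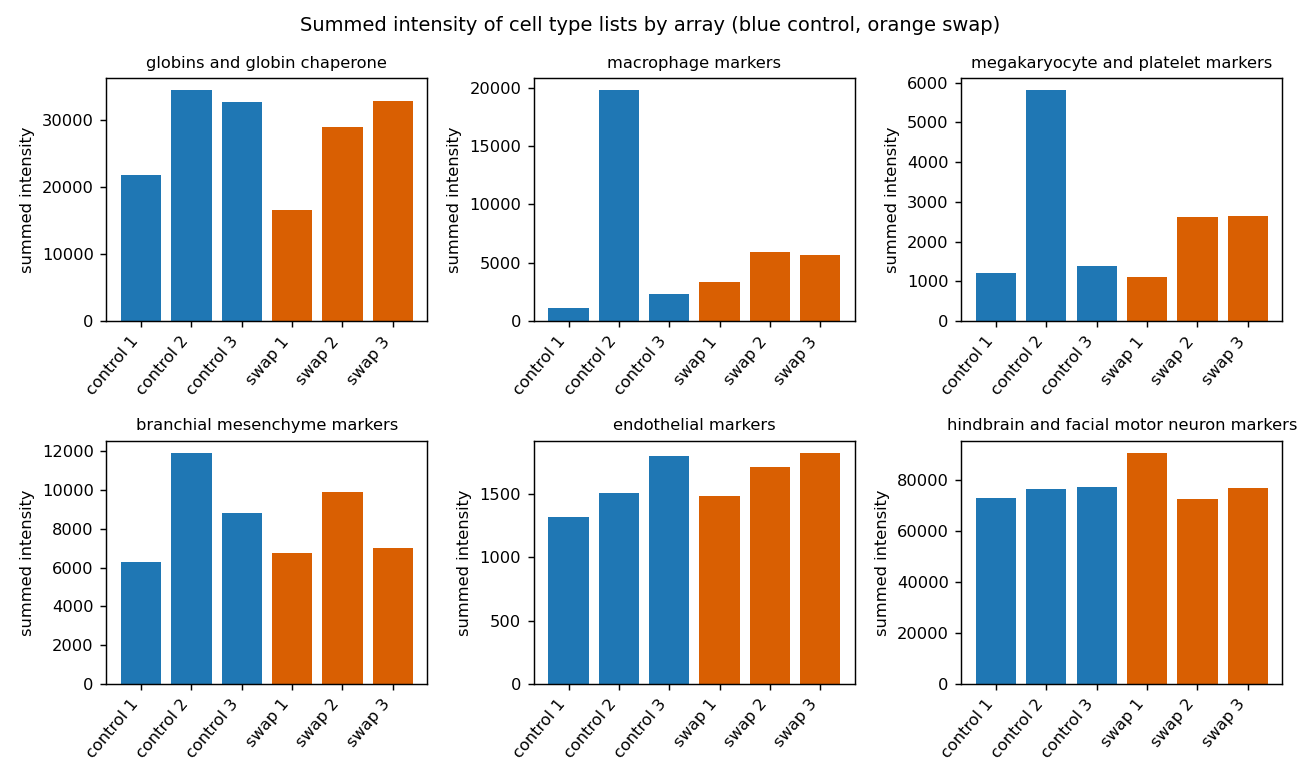
Summed linear intensity (vertical axes, each from 0) of the measured genes of 6 lists in each array, blue for control and orange for swap. The globin sum is lowest in control array 1 (21900) and swap array 1 (16581), the macrophage, platelet, mesenchyme and endothelial sums are also lowest in replicate 1 of each genotype, and the motor neuron sum is highest in swap array 1 (90733).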

How the data were processed

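Values are linear intensities as the authors deposited them, 1 for each probe set on each of the 6 arrays. The submitters' processing notes name affy. Its release and the steps run in it are not stated there. Each array's intensities have the same 2% trimmed mean, 500, and so share a scale. Log2 was taken without an offset, and array control probe sets were left out. Genes were named from the platform's probe table: 34945 probe sets had 1 symbol, 932 several and 9160 none. A gene's level is that of its brightest probe set by mean.

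Differences are swap minus control, fitted on all 45037 probe sets with limma 3.58.1 (lmFit, eBayes) in R 4.3.3, two-sided, with Benjamini-Hochberg adjustment over all of them and a threshold of 0.05. Tested on simulated data with all probe sets in the fit, limma recovered 0, 22, 40 and 43 of 50 probe sets, none under the median, changed 2-fold, 4-fold, 8-fold and 16-fold. The p-values measure the spread between independent replicates of pooled litters. Correlations over the 6 arrays have two-sided exact permutation p over all 720 pairings. The number of arrays limits the precision. No hybridization batch is given in the sources used.

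The 9 genes, the 12 lists and the tests were chosen with earlier results of these data known. All 9 genes are named. Each list gives by name the 2 further genes with the smallest p and, for other cell types, also the 2 highest. The text also names the 5 genes most like Hbb-y. The alternatives changed the scaling (quantile normalization, median centring), the offset (64), the variance prior, the array weights, the probe sets kept (those at or above the median), the use of replicate numbers as a block, the probe set that stands for a gene (the mean of all) and the arrays left out. Correlations without the replicate 1 arrays were added after seeing the data, as was the offset in earlier work on them. A further gene is not reported here.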

Additional observations from a re-analysis of the deposited data

How the results depend on the processing

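The count of probe sets and of the 9 genes called between the genotypes was 0 in limma under all alternatives run, including every array left out (0 to 0). Unadjusted, 2060 probe sets had a p under 0.05 in the reported fit and 838 with the filter at the median level, over fewer probe sets; that filter also left only 4 of the 9 genes. No correlation was tested with an array left out, since fewer than 6 remain. Of 130 values for the differences of the 9 genes under 15 alternatives, 116 kept their direction, 0 became called and 14 turned, none of them called before. Without swap array 1 the differences were 0.09 for Hbb-y, 0.18 for Hbb-bh1, 0.03 for Hba-x, 0.54 for Klf1, 0.33 for Epor and 0.17 for Slc4a1. Without control array 2 they were 0.27 for Klf1 and 0.13 for Slc4a1, and without control array 1 it was 0.11 for Gata1. Leaving out 1 array in turn gave lowest values of -0.29 for Hbb-y, -0.62 for Hbb-bh1, -1.14 for Hba-x, -0.87 for Klf1, -0.61 for Gata1, -1.73 for Epor and -0.35 for Slc4a1. Without both replicate 1 arrays they were 0.18 for Klf1, 0.26 for Gata1 and 0.07 for Slc4a1. An offset of 64 gave 0.01 for Klf1, and the mean of probe sets gave 0.09 for Slc4a1. For the turns that came with other settings than a left-out array, the cause was not tested. The count of correlated pairs at an adjusted p under 0.05 stayed at 0 under quantile normalization, median centring, an offset of 64 and the mean of probe sets. With the replicate number as a block limma called 0 of the 9 genes and 0 probe sets, with 2323 at an unadjusted p under 0.05. That block moved limma's unadjusted p from 0.431 to 0.098 for Hba-x, from 0.623 to 0.348 for Hbb-bh1 and from 0.00466 to 0.0097 for Hba-a1. Same-numbered arrays correlated in their deviations at 0.234, 0.031 and 0.224, the first and last being the highest of all combinations. Control array 2 correlated best with swap array 3 (0.123). Whether the numbers pair the arrays is therefore not settled, and the reported fit does not use them. Levels below the median of all probe sets limit the precision for Alas2, Klf1, Gata1, Epor and Hba-a1.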

Other observations

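Several blood cell regulators, chosen after their values were seen, were lowest in control array 1 and did not share the low value of swap array 1 to the same degree. Tal1, a factor of blood and endothelial cells, read 8.06, 10.14 and 9.15 in the control replicates against 8.73, 8.70 and 9.53 in the swap replicates. Runx1, a factor of definitive blood, read 5.63, 7.75 and 8.02 in the control replicates against 7.27, 7.51 and 7.28 in the swap replicates. Bcl11a, a repressor of embryonic globin genes that neurons also express, read 8.74, 10.58 and 10.28 in the control replicates against 9.30, 9.31 and 10.61 in the swap replicates. Their differences were -0.13 (SE 0.58), 0.22 (SE 0.66) and -0.13 (SE 0.63), and none passed limma's test. Which cells of the sort carried the RNA of these genes was not tested. They do not stand for the list of 14 erythroid transcription factors they come from. Gata1, Gata2, Ldb1, Zfpm1 and Lyl1 of that list were instead highest of the controls in control array 1. Klf1, Gfi1b and Lmo2 of it were, like Bcl11a, lowest in replicate 1 of both genotypes. The list's summed intensity was 12910, 10526 and 10316 in the control replicates, with Gata2 its highest member in control array 1. The phosphatase gene Ptpn6 of blood cells ranged from 3.93 in control array 1 to 8.19 in control array 2. Among swap arrays it ranged from 5.48 in swap array 1 to 7.21 in swap array 2, so replicate 1 was lowest in both genotypes.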
